A study of Mus musculus with 13 samples.

Results

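The ligands and receptors of the TGF-β and activin branch of signalling were examined for SMAD3 and OCT4 binding in mouse embryonic fibroblasts (MEFs) on day 3 of culture with or without induction of the reprogramming factors. The 10 genes were the ligand genes Tgfb1, Tgfb2, Tgfb3 and Inhba, the signalling receptor genes Tgfbr1, Tgfbr2, Acvr1b and Acvr2a, and the co-receptor genes Tgfbr3 and Eng, out of 21938 protein-coding genes of the GENCODE M21 annotation of mm10. They were named by their place in the pathway, and no measured value entered the rule, but earlier results of these data were known when they were chosen. For each gene, every peak or listed site that shared at least 1 bp with its span plus 10 kb on each side was taken. The cells carried a doxycycline (dox)-inducible cassette of c-Myc, Klf4, Oct4 and Sox2 inserted with the reverse transactivator at Sp3, together with a GFP reporter of Nanog, and every group, controls included, had been infected with a retrovirus for Smad3CA, a constitutively active SMAD3 whose C-terminal serines were replaced by aspartates. SMAD3 was immunoprecipitated from Smad3CA MEFs given 1 µg/ml dox (Dox+, 3 replicates) and from Smad3CA MEFs without dox (Dox-, 3 replicates), and OCT4 from the Dox+ cells (3 replicates). Of the 4 inputs, 2 came from Dox+ and 2 from Dox- cells, and peaks were called against pooled inputs. The paper gives the control as merged replicates without naming their condition. Since SMAD3CA was overexpressed in all groups, no group shows SMAD3 binding set by the receptors alone, and bulk ChIP cannot separate fewer bound cells from less binding per cell. ChIP-seq carries no RNA levels, so the fibroblast identity of the cells was not checked against marker expression.

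As background, TGF-β and activin dimers bring type II receptors together with type I receptors, which phosphorylate SMAD2 and SMAD3 at their C termini, and the phosphorylated SMADs enter the nucleus with SMAD4. Tgfbr1 (ALK5) and Tgfbr2 are the type I and type II receptors of TGF-β, Acvr1b (ALK4) and Acvr2a those of activin, and Inhba encodes the subunit of activin A. Tgfbr3 (betaglycan) and Eng (endoglin) bind ligand at the cell surface without a kinase domain of their own. In fibroblasts the pathway is known for extracellular matrix production, and several of its components are themselves SMAD targets. The comparisons asked where SMAD3 lay at these genes, whether dox induction went with a change there, and whether OCT4 lay at the same places.

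SMAD3 peaks lay at nearly all of these genes in both conditions, and the sites that the authors listed as differing between conditions were all lower in Dox+ and lay at Tgfbr3 and Acvr1b. In the merged lists, which were called on the pooled replicates of a group, 9 of the 10 genes had a Dox+ SMAD3 peak and all 10 had a Dox- SMAD3 peak, where 52.5% and 48.0% of all protein-coding gene windows had one. The windows of the 10 genes were longer than usual, with a median of 70.7 kb against 37.4 kb over all genes. Within 1 kb of an annotated transcript start, 7 of the 10 genes had a merged Dox+ peak and 9 had a merged Dox- peak, against 42.5% and 37.8% of all protein-coding genes. Of the merged peaks themselves, 7 of 16 in Dox+ and 10 of 20 in Dox- had their center within 1 kb of a start of these genes. OCT4 had a merged peak at 1 of the 10 genes, Tgfbr3, against 4.85% of all gene windows.

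The replicate lists behind these counts ranged from 420 to 23981 SMAD3 peaks. Replicates 1, 2 and 3 of Dox+ had 0, 33 and 10 peaks at the 10 genes, out of 420, 23981 and 10374. Replicates 1, 2 and 3 of Dox- had 2, 34 and 10, out of 1656, 18588 and 4038. The absence of a peak from a replicate 1 list was thus the rule at these genes. The number of the 10 genes with a peak was 0, 10 and 9 in the Dox+ lists and 2, 10 and 6 in the Dox- lists, or 6.33 ± 5.51 against 6.00 ± 4.00 (SD, n = 3 lists each), so the groups overlapped over nearly their whole range. Joining all SMAD3 lists gave 48 separate regions at the 10 genes. Of these, 21 were present in at least 2 replicate lists, 20 were present in lists of both conditions, 13 in Dox+ lists alone and 15 in Dox- lists alone. All 13 regions seen only in Dox+ and 14 of the 15 seen only in Dox- rested on a single list. The exception, in Dox- replicates 2 and 3 and in no Dox+ list, lay in an intron of Tgfbr3.

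**Figure D1:**
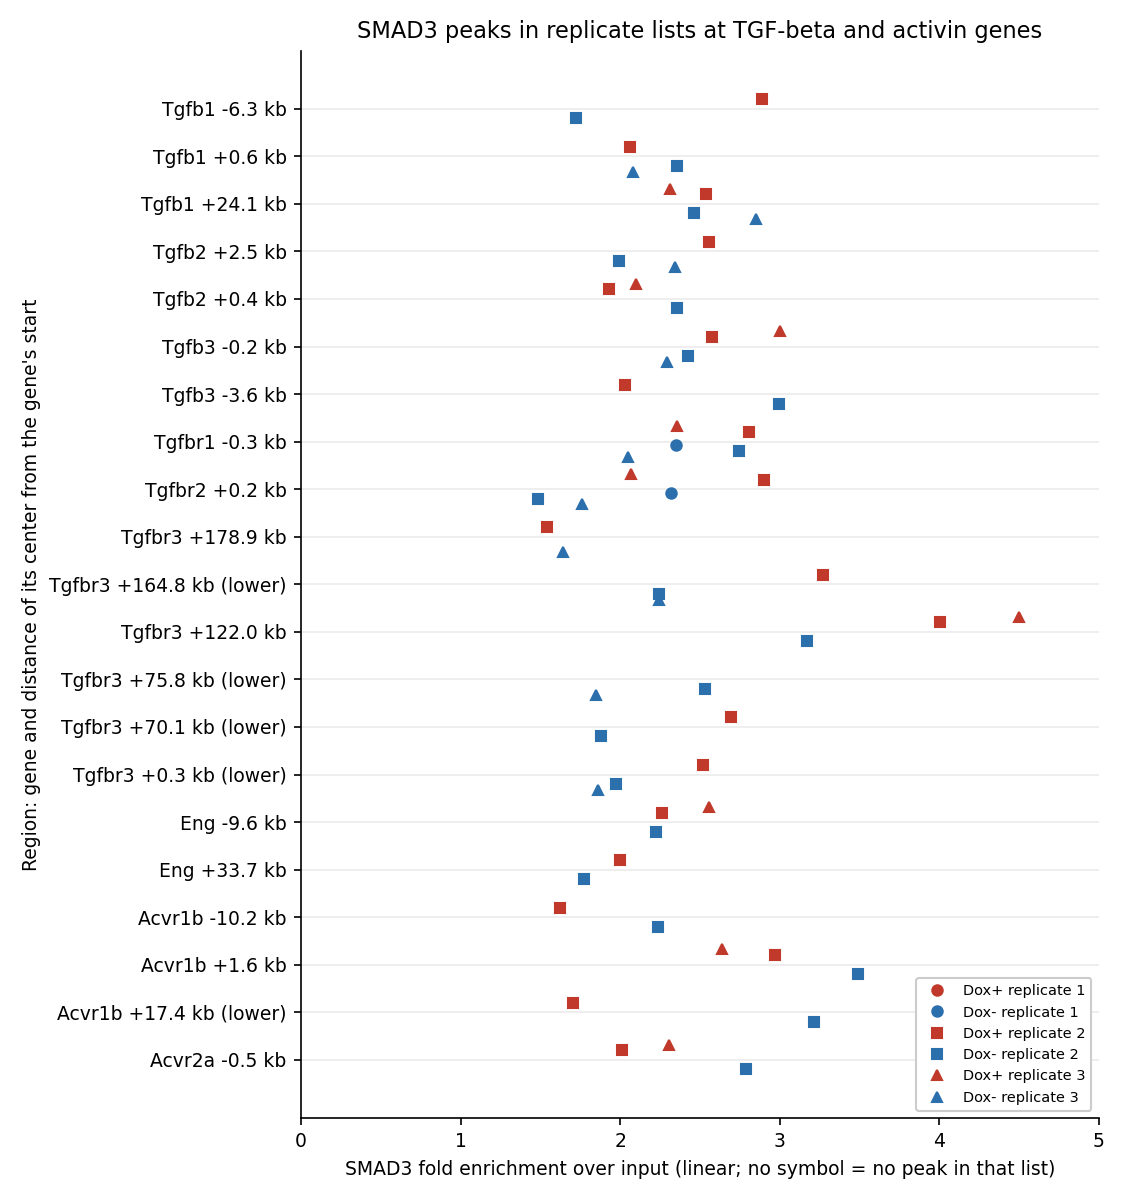
SMAD3 fold enrichment over input (x axis, linear) of the 21 regions at the 10 genes that were present in at least 2 replicate lists, 1 row per region with the distance of its center from the gene's start; red symbols are Dox+ lists, blue symbols Dox- lists, the symbol shape gives the replicate, and "(lower)" marks the 5 sites listed as lower in Dox+. Enrichments ran from 1.49 to 4.50, and 20 of the 21 rows hold both red and blue symbols.

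Among the ligand genes, Tgfb1, whose product is the main TGF-β of most tissues, had a SMAD3 region over its start. Its fold enrichment was 2.06 in Dox+ replicate 2, and 2.36 and 2.08 in Dox- replicates 2 and 3, with no peak in the other 3 lists. Its merged peaks had 2.48-fold enrichment in Dox+ and 1.79-fold in Dox-, with −log10 q-values of 1.61 and 0.897. At Tgfb2 a region over the start, which also covers the start of Gm29491, had enrichments of 1.93 and 2.10 in Dox+ replicates 2 and 3 and of 2.36 in Dox- replicate 2. The merged peaks there had 2.22-fold enrichment in Dox+ and 3.16-fold in Dox-. Further into the gene, an intronic region near an internal start of Tgfb2 had a merged peak of 1.78-fold enrichment in Dox+ and another, not overlapping it, of 2.36 in Dox-. Tgfb3 had a region over its start and that of Gm48008, with 2.58 and 3.00 in Dox+ replicates 2 and 3 and 2.42 and 2.30 in Dox- replicates 2 and 3. Here the 2 Dox+ values stood above the 2 Dox- values, while the merged enrichments were 2.11 in Dox+ and 2.08 in Dox-. Inhba was the only ligand gene without a region in 2 lists. A peak of 1.30-fold enrichment over its start was present in Dox+ replicate 2 alone, and a merged Dox- peak of 2.27-fold enrichment, also found in Dox- replicate 2, lay 0.84 kb into the gene. None of its regions therefore entered the tested set of the comparison of conditions.

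At the genes of the signalling receptors, SMAD3 lay at each start in both conditions. The start of Tgfbr1, the type I receptor of TGF-β, was present in 5 of the 6 SMAD3 lists, with enrichments of 2.81 and 2.35 in Dox+ replicates 2 and 3 and of 2.35, 2.75 and 2.05 in Dox- replicates 1, 2 and 3. The start of Tgfbr2, the type II receptor, was present in the same 5 lists, with 2.90 and 2.07 in Dox+ and 2.32, 1.49 and 1.76 in Dox-. These were the regions present in the most lists, and their values overlapped between conditions. Merged enrichments were 2.35 in Dox+ and 2.52 in Dox- at Tgfbr1, and 2.04 and 2.05 at Tgfbr2. At Acvr1b, the type I receptor of activin, a long region over the start and into the gene had 2.97 and 2.64 in Dox+ replicates 2 and 3 and 3.49 in Dox- replicate 2, and the merged peaks at the start itself had 1.88 in Dox+ and 2.10 in Dox-. At Acvr2a, the type II receptor of activin, the region at the start had 2.01 and 2.31 in Dox+ replicates 2 and 3 and 2.79 in Dox- replicate 2. The merged peaks there had 2.43-fold enrichment in Dox+ and 3.53-fold in Dox-, the latter at rank 1104 of the 11512 merged Dox- peaks. None of these 4 starts was listed as differing between conditions.

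The co-receptor genes differed from each other in where SMAD3 lay. Eng had no merged peak within 1 kb of any of its starts in either condition. Its clearest region lay about 10 kb upstream of the gene, between genes, with enrichments of 2.26 and 2.56 in Dox+ replicates 2 and 3 and of 2.22 in Dox- replicate 2. In the merged lists a peak of 3.80-fold enrichment in Dox- (−log10 q 5.84) and another of 2.39-fold in Dox+ lay in this region, and they did not share a base. Tgfbr3, whose window of 203.06 kb made up 24.1% of the sequence taken for the 10 genes, held 17 of the 48 regions. Its peak number was 0, 7 and 1 in Dox+ replicates 1, 2 and 3 and 0, 15 and 4 in Dox- replicates 1, 2 and 3. In the merged lists it had 1 peak in Dox+ and 7 in Dox-, while the other 9 genes together had 15 in Dox+ and 13 in Dox-. Of the Dox- peaks, those at 70.11, 89.18, 127.5 and 132.06 kb from the start were each found in only 1 replicate list. Those at 89.18 and 127.5 kb had −log10 q-values of 0.702 and 0.636. The merged Dox+ peak, 121.87 kb into the gene, had 2.55-fold enrichment, with 4.00 and 4.50 in Dox+ replicates 2 and 3 and 3.17 in Dox- replicate 2. This was the highest enrichment of any SMAD3 replicate peak at the 10 genes, and no merged Dox- peak lay there. The start of Tgfbr3 had the highest merged enrichment of the 10 genes, 4.08-fold in Dox- (−log10 q 6.26, rank 603 of 11512), with no merged Dox+ peak.

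**Figure D2:**
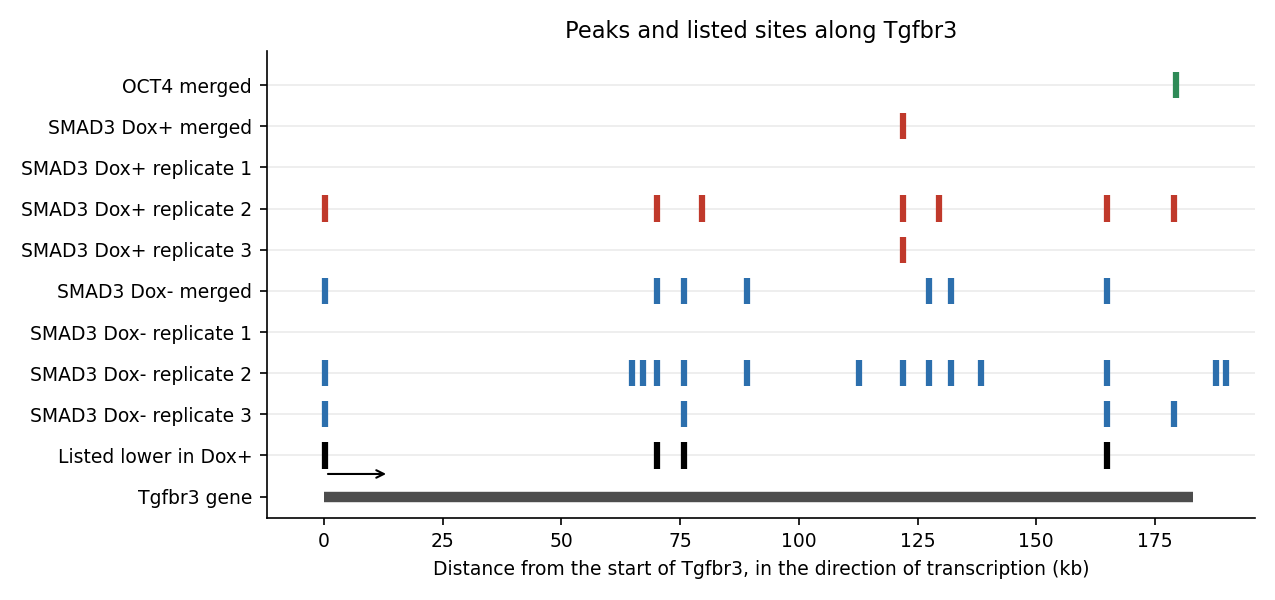
Positions of peaks and listed sites along Tgfbr3 by distance from its start in kb (x axis), with 1 row per list; each bar is the center of a region with a peak in that list and is drawn wider than the peak, and the grey bar is the gene. The merged Dox- list has 7 bars and the merged Dox+ list 1, the 4 listed sites stand at 0.26, 70.1, 75.8 and 164.84 kb, and the OCT4 peak stands at 179.42 kb, near the end of the gene.

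The authors' differential binding table for SMAD3 gives, for each listed site, the mean concentration of each condition on a log2 scale. The table holds 904 sites lower and 1176 sites higher in Dox+, which are 6.84% and 8.90% of 13217 regions rebuilt here as the tested set. At the 10 genes, 21 rebuilt regions were tested, of which 5 (23.8%) were listed as lower in Dox+ and 0 as higher. Without Tgfbr3 it was 1 of 15. Across genes, 3.85% of protein-coding windows held a site listed as lower and 6.64% a site listed as higher, against 2 and 0 of the 10 genes. Tgfbr3 held 4 listed-lower sites, a number reached by 2 protein-coding genes in all, Tgfbr3 and Ppm1h, the latter named here after its value was seen. Long genes have more room for such sites, and 1116 genes had windows at least as long as that of Tgfbr3. Of these, 9.68% held any site listed as lower.

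The 4 sites of Tgfbr3 ran along the whole gene. The first, chr5:107289093-107289654, covers the start and its 5′ untranslated exon and reaches into the first intron. The authors' mean there was 1.79 in Dox+ and 3.97 in Dox- (log2), a 4.55-fold lower concentration in Dox+. The second, chr5:107219399-107219651, is intronic, with means of 1.53 and 3.03. The third, chr5:107213521-107214069, is also intronic, with means of 1.18 and 3.65, the largest difference of the 4 at 5.54-fold. The fourth, chr5:107124506-107125067, lies in an intron 164.84 kb from the start, with means of 2.50 and 4.11. The site of Acvr1b, chr15:101190891-101191979, lies in an intron 17.4 kb from the start, with means of 1.37 in Dox+ and 3.28 in Dox-, a 3.75-fold lower concentration in Dox+. The median difference of all 904 sites was -1.78 on the log2 scale, and the 5 sites, at -1.49 to -2.47, lay on both sides of it. The table gives these concentrations as group means with no value per replicate, so no replicate error can be given for them, and the authors' own fold, p-value and false discovery rate per site were not used.

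**Figure D3:**
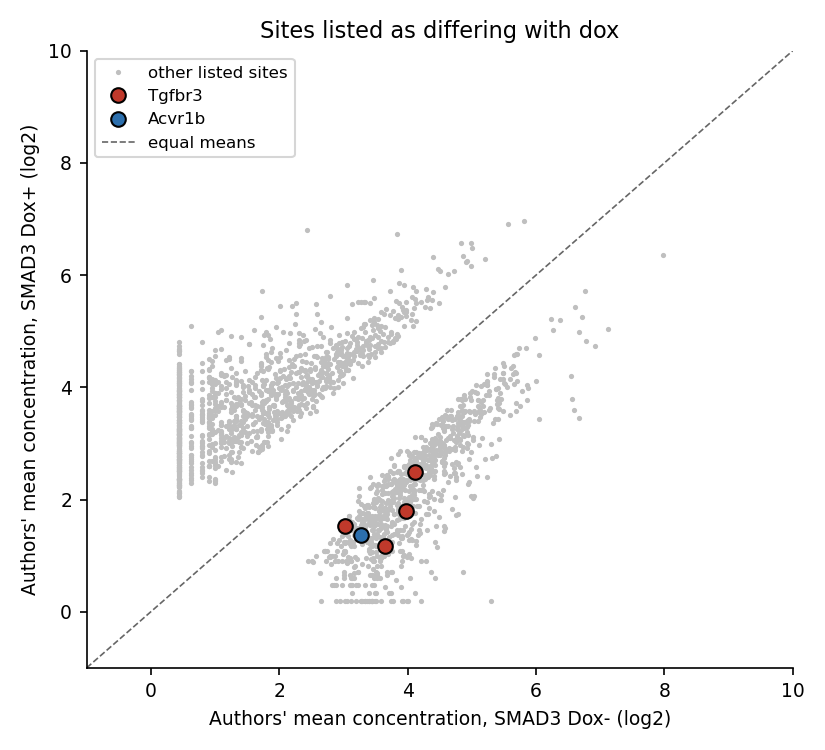
Authors' mean concentration of SMAD3 in Dox+ (y axis, log2) against Dox- (x axis, log2) at the 2080 listed sites; grey dots are sites away from the 10 genes, coloured circles the 4 sites at Tgfbr3 and the 1 at Acvr1b, and the dashed line marks equal means. All 5 circles lie below the line, inside the cloud of sites lower in Dox+.

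The peak lists gave a mixed picture of the same 5 sites. At the start of Tgfbr3 the enrichment was 2.52 in Dox+ replicate 2 and 1.97 and 1.86 in Dox- replicates 2 and 3. At the site 70.1 kb into the gene it was 2.69 in Dox+ replicate 2 and 1.88 in Dox- replicate 2. At the site 75.8 kb into the gene it was 2.53 and 1.85 in Dox- replicates 2 and 3, with no Dox+ peak. At the site 164.84 kb into the gene it was 3.27 in Dox+ replicate 2 and 2.24 in both Dox- replicates 2 and 3. So at 3 of the 4 Tgfbr3 sites the longest Dox+ list held a peak with a higher enrichment than any Dox- list, against the direction of the authors' means. The merged lists had the opposite order, with peaks of 4.08, 2.34, 2.73 and 3.11-fold enrichment in Dox- in the order of distance from the start, and none in Dox+. The Acvr1b site had 1.70 in Dox+ replicate 2 and 3.22 in Dox- replicate 2, and no merged peak in either condition. None of the 5 sites had a peak in Dox+ replicates 1 or 3 or in Dox- replicate 1. An enrichment exists only where a list has a peak, while the authors' means are concentrations of a whole group, so these measures are not alike. How far the differences in list length entered the authors' means was not tested.

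The sequences of these sites are shown because they carry the only differences with dox that were listed at the 10 genes. Each is 200 bases around the site's center from the GRCm38.p6 genome, plus strand, 5′ to 3′, except that the site at the start of Tgfbr3 is shown by its intronic bases beside the untranslated exon. Tgfbr3 is transcribed from the minus strand. Capitals mark matches to CAGAC, a core SMAD motif, on either strand.

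Tgfbr3 start, first intron, chr5:107289093-107289254: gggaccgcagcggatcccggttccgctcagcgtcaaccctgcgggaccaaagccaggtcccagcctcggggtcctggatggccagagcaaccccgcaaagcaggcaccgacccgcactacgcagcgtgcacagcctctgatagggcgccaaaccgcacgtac

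Tgfbr3 intron, 70.1 kb, chr5:107219425-107219624: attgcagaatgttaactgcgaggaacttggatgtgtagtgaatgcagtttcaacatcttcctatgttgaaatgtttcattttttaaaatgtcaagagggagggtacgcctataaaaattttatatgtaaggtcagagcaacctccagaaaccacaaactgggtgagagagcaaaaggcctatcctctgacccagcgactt

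Tgfbr3 intron, 75.8 kb, chr5:107213695-107213894: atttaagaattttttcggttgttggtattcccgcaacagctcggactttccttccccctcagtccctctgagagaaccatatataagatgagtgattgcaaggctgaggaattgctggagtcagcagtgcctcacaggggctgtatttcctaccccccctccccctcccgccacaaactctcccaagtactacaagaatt

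Tgfbr3 intron, 164.84 kb, chr5:107124687-107124886: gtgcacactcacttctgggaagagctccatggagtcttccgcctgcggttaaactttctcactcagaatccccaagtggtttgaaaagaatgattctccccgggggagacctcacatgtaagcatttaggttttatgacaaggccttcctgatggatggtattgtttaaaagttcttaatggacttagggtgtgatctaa

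Acvr1b intron, 17.4 kb, chr15:101191335-101191534: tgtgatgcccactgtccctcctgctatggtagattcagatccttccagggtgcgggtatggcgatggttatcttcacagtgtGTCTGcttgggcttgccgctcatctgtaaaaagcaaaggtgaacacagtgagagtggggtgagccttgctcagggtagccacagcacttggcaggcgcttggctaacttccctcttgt

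Of these 5 stretches, only that of Acvr1b held CAGAC, once. Among the same central 200 bases of the 13217 rebuilt SMAD3 regions, 35.6% held CAGAC, 5.99% TGANTCA (an AP-1 motif with any middle base), 3.50% GGGCGTGG and 2.35% GGGTGTGG (KLF motifs), 0.643% ATGCAAAT (the octamer bound by OCT4) and 0.265% GTCTAGAC (the SMAD palindrome). None of the 5 stretches held any of the other motifs. Their G+C content ran from 40.5% in the intron site at 70.1 kb to 67.9% at the start of Tgfbr3.

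OCT4 had a single peak at the 10 genes. It lay in an intron of Tgfbr3, at chr5:107110109-107110347, 179.42 kb from the start and 3.64 kb before the end of the gene. Its enrichment in the merged list was 5.03-fold (−log10 q 7.20), below the median of 6.15 over the 2022 merged OCT4 regions and at rank 1606. It was present in OCT4 replicate 1, with 5.69-fold enrichment, and absent from replicates 2 and 3, of which the latter had by far the shortest list. The sequence around its summit is shown on the plus strand as the place at these genes where OCT4 was found, with capitals for the closest match to the octamer.

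Tgfbr3 OCT4 peak, chr5:107110113-107110312: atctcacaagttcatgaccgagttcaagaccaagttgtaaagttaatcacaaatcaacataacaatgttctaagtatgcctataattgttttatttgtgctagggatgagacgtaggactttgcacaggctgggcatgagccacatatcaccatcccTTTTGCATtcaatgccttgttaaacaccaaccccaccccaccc

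None of the 6 motifs was present without a mismatch in these 200 bases. With 1 mismatch allowed, an alternative chosen after the sequence was seen, 1 match to ATGCAAAT lay 61 bp from the summit, and 53.9% of the 2022 OCT4 regions held such a match, against 6.43% for the octamer without a mismatch and 8.42% of SMAD3 regions for the octamer with up to 1 mismatch.

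SMAD3 was found at this OCT4 peak in part. A SMAD3 peak of 1.54-fold enrichment (−log10 q 0.549) in Dox+ replicate 2, chr5:107110115-107111061, overlapped it, and no other SMAD3 replicate list or merged list had a peak over the OCT4 peak itself. A peak of 1.64-fold enrichment in Dox- replicate 3 overlapped that Dox+ SMAD3 peak without reaching the OCT4 peak. In the pooled input-subtracted coverage, scaled by the authors so that 1 is the mean coverage of the genome, the central 200 bp had 19.7 for OCT4, 9.40 for Dox+ SMAD3 and 2.59 for Dox- SMAD3. Between 500 and 1000 bp away the coverage was -0.172, 0.551 and 3.83 in the same order, so Dox- SMAD3 was not higher at the center than beside it. Over the 2083 OCT4 entries the mean central coverage of these signals was 23.2, 8.13 and 0.229, and this locus had a lower value than the mean for OCT4 and higher ones for SMAD3. Pooled coverage has no replicate error. In the authors' comparison of OCT4 with SMAD3 in Dox+, where 13.6% of 9903 rebuilt regions were listed as higher for OCT4 and 6.64% as higher for SMAD3, this region was listed with means of 4.66 for OCT4 and 2.15 for SMAD3 (log2).

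**Figure D4:**
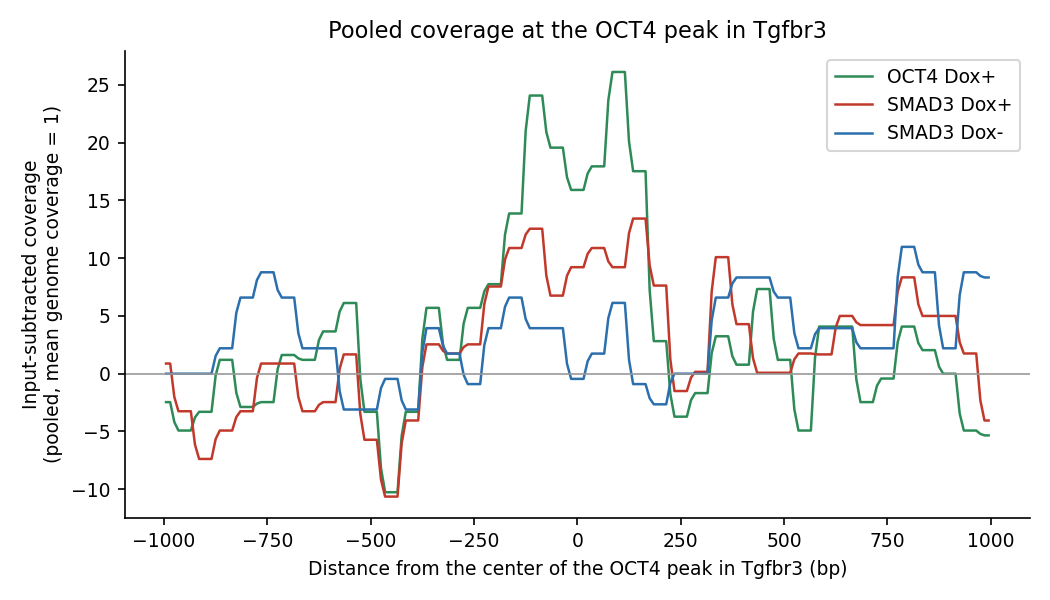
Pooled input-subtracted coverage (y axis, mean genome coverage of 1) by distance in bp from the center of the OCT4 peak in Tgfbr3 (x axis) for OCT4, SMAD3 Dox+ and SMAD3 Dox-, in bins of 10 bp. OCT4 and SMAD3 Dox+ rise at the center, to means of 19.7 and 9.40 over the central 200 bp, while SMAD3 Dox- stays at 2.59, within its range elsewhere in the window. Single bins of SMAD3 Dox+ away from the center also reach 10.1, at 335 to 365 bp.

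The only other entry of that table at the 10 genes was the start of Acvr2a, chr2:48813599-48814496, with means of 1.12 for OCT4 and 3.45 for SMAD3 (log2), a 5.03-fold higher concentration for SMAD3. No OCT4 list had a peak there. The 200 bases before the annotated start, in which G+C made up 82.0%, are shown with the match to CAGAC, on either strand, in capitals.

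Acvr2a promoter, chr2:48813909-48814108: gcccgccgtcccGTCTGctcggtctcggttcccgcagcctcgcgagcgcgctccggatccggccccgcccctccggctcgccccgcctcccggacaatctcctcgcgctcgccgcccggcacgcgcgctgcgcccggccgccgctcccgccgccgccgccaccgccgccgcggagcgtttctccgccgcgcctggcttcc

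The length covered by SMAD3 peaks was compared per gene over the replicate lists, as the only value with replicates that was tested. Tgfbr3 had 0, 3.19 and 0.458 kb in Dox+ replicates 1, 2 and 3 and 0, 6.35 and 1.74 kb in Dox- replicates 1, 2 and 3, or 1.22 ± 1.72 against 2.70 ± 3.28 kb (SD, n = 3). Tgfb2 had 0, 4.23 and 1.62 kb in Dox+ and 0, 1.29 and 0.215 kb in Dox-, or 1.95 ± 2.14 against 0.500 ± 0.689 kb (SD, n = 3). Replicate 2 was the highest list in both conditions at each of these genes, and the groups overlapped. Acvr1b had 0, 1.68 and 0.602 kb in Dox+ and 0, 4.68 and 0 kb in Dox-, so its Dox- mean of 1.56 kb rested on a single list. Of the 10 genes, 6 had a lower and 4 a higher mean in Dox+, with differences from -1.48 kb at Tgfbr3 to 1.45 kb at Tgfb2. The median difference was -0.279 kb, against 0.199 kb over the 14706 gene windows with any SMAD3 peak, of which 25.6% were lower in Dox+. Replicates 2 and 3 covered 17.2 and 7.44 Mb of the genome in Dox+, against 13.5 and 2.14 Mb in Dox-. Replicate 1 covered 0.123 Mb in Dox+ and 0.76 Mb in Dox-. How far these list lengths set the medians and the share was not tested. The two-sided exact permutation p ran from 0.4 at Tgfb2 to 1.0, and all adjusted p-values were 1.0. Lists of 3 against 3 cannot go below 0.1, and where replicate 1 covered 0 kb in both conditions even 0.1 was out of reach. The p of 0.1 was reached by 25 of the 14706 windows, so adjusted values could hardly be small at any gene. Nothing is concluded from these p-values. In none of the 10 genes were all Dox+ lists below or all above all Dox- lists, which held in 0.0272% and 0.143% of the gene windows. This was largely fixed by the replicate 1 lists, so nothing is concluded from it. Dox+ replicate 1 had 0 peaks at the 10 genes, so its length could not lie above any Dox- list. Dox- replicate 1 had a peak at only 2 of them, so at the others no Dox+ list could lie below it. A difference in covered length was thus not detectable at this number and depth of lists.

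**Figure D5:**
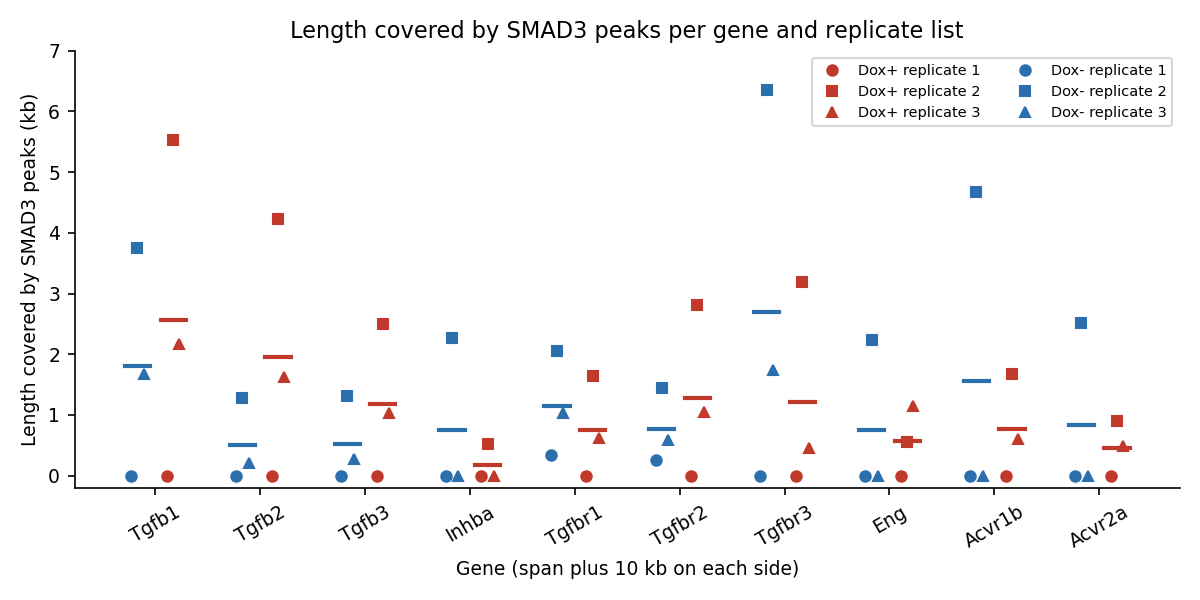
Length covered by SMAD3 peaks in kb (y axis) at each of the 10 genes for Dox+ (red) and Dox- (blue) replicate lists, with the symbol shape for the replicate and a horizontal line for the mean of 3 lists. Lists of replicate 1 lie at or near 0 throughout, and the Dox+ and Dox- symbols overlap at every gene, including Tgfbr3 with means of 1.22 and 2.70 kb.

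The other ligands, receptors, binding proteins and activators of the pathway were taken as a list of 30 genes. Of these, 22 had a merged SMAD3 peak in Dox+, 22 in Dox-, and 6 in neither, where 52.5% and 48.0% of all protein-coding windows had one in Dox+ and in Dox-. Sites listed as lower in Dox+ lay at 8 of the 30 genes and sites listed as higher at 2, against 3.85% and 6.64% of all gene windows. These were 8 and 2 of their 37 tested regions, against 6.84% and 8.90% of all tested regions. The starts of Fstl3 and Ltbp3, an activin antagonist and a latent TGF-β binding protein, had means of 1.24 against 4.43 and of 2.72 against 5.20 (log2, Dox+ against Dox-). Lrrc32, which holds latent TGF-β at the cell surface, had 0.966 against 4.05 at a site past its end. That site, 16.2 kb from the start of Lrrc32, covers the start of Gm23040. Ltbp1 had 0.596 against 3.17 at an internal start. The start of Itgb8, an integrin subunit that activates latent TGF-β, had 2.50 against 3.86. Fst, another activin antagonist, had 1.56 against 3.17 at a site past its end, 8.23 kb from its start. The Fst site had a SMAD3 peak in 1 Dox+ and 1 Dox- replicate list. Thbs1, a matrix protein that can activate latent TGF-β, had 5.25 against 6.72 at a site past its end, 17.0 kb from its start. Inha, the inhibin subunit, had 3.78 against 5.17 at a site shared with the start of Obsl1. The sites listed as higher were at Gdf3, a ligand of the Nodal type, with 3.70 against 1.01, and at an internal start of Ltbp4, with 5.53 against 4.21. At the Ltbp4 and Thbs1 sites the merged peaks had the order opposite to the means, with 1.96-fold enrichment in Dox+ and 2.21-fold in Dox- at Ltbp4 and 2.49-fold in Dox+ and 2.26-fold in Dox- at Thbs1.

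OCT4 had a merged peak at 3 of the 30 genes, against 4.85% of all gene windows. The peak of Gdf3 lay in its intron inside the listed site, with 9.29-fold OCT4 enrichment and a merged SMAD3 peak of 2.82-fold in Dox+ and none in Dox-. The peak of Lefty2, an inhibitor of Nodal, lay 4.29 kb upstream, with 6.89-fold OCT4 enrichment and a merged SMAD3 peak of 2.23-fold in Dox+ and none in Dox-, while 2 Dox+ and 1 Dox- replicate lists held a SMAD3 peak there. The peak of Itgb6, another integrin subunit that activates TGF-β, had 6.68-fold OCT4 enrichment and no SMAD3 peak in any list. The Tgfbr3 peak, at 5.03, was thus lower in OCT4 enrichment than these 3, and like that of Itgb6 it had no merged SMAD3 peak.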

How the data were processed

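The authors trimmed the reads (Trimmomatic), aligned them to mm10 (Bowtie 2), removed duplicates, blacklisted reads and reads with a mapping quality under 40, and called peaks with MACS2 2.1.0 against pooled inputs, per replicate and on merged replicates (OCT4 narrow, q-value 0.01; SMAD3 broad, cutoff 0.1). The deposited peak lists give a fold enrichment, which is a linear ratio over input, and a −log10 q-value, which for broad peaks is a regional average. The deposited DiffBind 1.16.3 tables give log2 mean concentrations per group, used here as the authors' means, and the authors' log2 fold, p-value and false discovery rate (up to 0.1 for listing), which were not used. In the deposited signal matrices the score is pooled coverage minus input coverage in 10 bp bins. The peak files hold no read totals, so depth per sample is unknown and list length stands in for it.

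Genes were placed by GENCODE M21, and overlap meant at least 1 bp. Tested regions were rebuilt by joining the 6 SMAD3 replicate lists (3 OCT4 and 3 SMAD3 Dox+ lists for the second table), where a region had to occur in at least 2, and all 2080 and 2007 listed sites were among them. Covered length per gene was compared by two-sided exact permutation over lists with Benjamini-Hochberg adjustment over 14706 gene windows, and the code was tested on simulated data. Nothing states whether replicates were separate cultures, so p-values measure only the spread between these samples. The rule for naming took all 10 genes, all listed sites, all merged OCT4 peaks and merged SMAD3 peaks at starts, neighbours with a start within 1 kb of these, and genes of the list of 30 with a listed site or OCT4 peak. The genes, the list and the tests were chosen with earlier results of these data known. Alternatives were a flank of 0 bp, stricter q-values, an overlap of 50%, support by 2 lists, other scales, left-out replicates and a replicate block. RefSeq promoters (GRCm38.p6) were matched for 8 of the 10 genes and not for Tgfb3 and Tgfbr3. Gapped-peak files were not used. Python 3.11.15, numpy 2.4.6, pandas 2.3.3, pysam 0.24.0 and matplotlib 3.10.9 were used.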

Additional observations from a re-analysis of the deposited data

How the results depend on the processing

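The 5 sites lower and 0 sites higher in Dox+ stood without a flank and with 50% of the site inside the window, and they could not be recomputed without single libraries, since the table holds no value per replicate. The merged peaks moved with the setting. Without a flank, Dox+ had 10 of its 16 peaks and Dox- 17 of its 20, with a q-value up to 0.01 both had 6, and with support by 2 replicate lists Dox+ had 10 and Dox- 9. The number of genes with an OCT4 peak fell from 1 to 0 when 2 replicate lists had to hold it, and from 1 to 0 without OCT4 replicate 1 (range 0 to 1). The mean number of genes with a SMAD3 peak, Dox+ minus Dox-, was 0.333, and -1.67 to 3.50 with single lists left out. With the 420 strongest peaks of each list no list had a peak at these genes. The OCT4 peak in Tgfbr3 had no merged SMAD3 peak within 500 bp or under any other setting tried.

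The sign of the difference in covered length (kb, Dox+ minus Dox-) changed in 20 of 110 recomputed values, and the cause was not tested. With single lists left out it ran from -0.729 to 2.04 at Tgfb1, 0.311 to 2.43 at Tgfb2, -0.0102 to 1.24 at Tgfb3, -0.957 to 0.173 at Inhba, -0.833 to 0.0672 at Tgfbr1, -0.239 to 1.16 at Tgfbr2, -2.83 to 0.344 at Tgfbr3, -0.556 to 0.565 at Eng, -1.58 to 0.760 at Acvr1b and -0.793 to 0.460 at Acvr2a. The Tgfbr3 value of 0.344 was that without Dox- replicate 2. With a q-value up to 0.01 the Tgfbr3 difference was 0.615 kb. Without a flank that of Tgfb1 was -0.0563 kb. Per Mb covered by the list it was -0.149 at Tgfb1, -0.139 at Tgfbr2 and 0.0064 at Eng. On this scale the Tgfbr1 difference kept its sign, at -0.300. Every Dox+ list there lay below every Dox- list, with an unadjusted permutation p of 0.1, the smallest possible. Dox- replicate 1 entered with 0.34 kb from 1 peak, in a list covering 0.76 Mb. On the log2(kb + 0.1) scale the difference was -0.0628 at Tgfbr2, 0.60 at Eng, 0.46 at Acvr1b and 0.38 at Acvr2a. Replicate numbers were not taken as pairs in the main comparison, as the correlations of same-numbered deviations were 0.379, 0.173 and -0.046. List length did follow the replicate number in both conditions, with replicate 1 shortest and replicate 2 longest. Whether a replicate effect shared by the conditions was part of the spread within groups was not tested. With the replicate block, sign flips of 3 pairs gave p of 0.25 or more at every gene, 0.25 being the smallest they can give, with mean differences of -1.48 kb at Tgfbr3 and 0.333 genes with a peak. Where replicate 1 covered 0 kb in both conditions, even 0.25 was out of reach of the sign flips.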

Other observations

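Some peaks in the gene windows belonged by position to neighbours. In the window of Tgfb1, a region upstream of the gene covers the start of B9d2, with 2.89-fold SMAD3 enrichment in Dox+ replicate 2 and 1.72 in Dox- replicate 2, and a region 24.1 kb downstream of the Tgfb1 start, which reaches the untranslated end of Ccdc97, had 2.54 and 2.31 in Dox+ replicates 2 and 3 and 2.46 and 2.85 in Dox- replicates 2 and 3. In the window of Tgfb3, a region over the start of Ift43 had 2.03 in Dox+ replicate 2 and 2.99 in Dox- replicate 2. None of these 3 regions was listed as differing between conditions.

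The RefSeq promoters of the members, 300 bases from 250 before to 50 after the start, were searched for the same motifs. Of 9 promoters of 8 genes, 5 held CAGAC (an alternative Tgfbr1 promoter, Tgfb2, Tgfbr2, Eng and Acvr2a), against 49.6% of 32851 promoters. GGGCGTGG was present in the main Tgfbr1 promoter, with 2 matches, and GGGTGTGG in that of Tgfb2, against 5.33% and 3.56% of all promoters. Eng, whose promoter held CAGAC 2 times, had no SMAD3 peak at its start in any list.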
